A study of Mus musculus with 18 samples.

Results

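The Kruppel-like factors are a family of zinc-finger transcription factors, and 10 of their genes (Klf2, Klf3, Klf4, Klf5, Klf6, Klf7, Klf9, Klf10, Klf13 and Klf15) were followed here across flow and genotype. On GRCm38 (GENCODE M21) the flow-response genes are Klf2 (ENSMUSG00000055148) at chr8:72319033-72321656 and Klf4 (ENSMUSG00000003032) at chr4:55527143-55532466, the injury and TGF-beta genes Klf6 (ENSMUSG00000000078) at chr13:5861482-5870394 and Klf10 (ENSMUSG00000037465) at chr15:38291463-38300706, and Klf13 (ENSMUSG00000052040) at chr7:63886351-63938915. The others are Klf9 (ENSMUSG00000033863) at chr19:23141226-23168134, Klf15 (ENSMUSG00000030087) at chr6:90462576-90475238, Klf3 (ENSMUSG00000029178) at chr5:64803388-64832901, Klf7 (ENSMUSG00000025959) at chr1:64029447-64122282 and Klf5 (ENSMUSG00000005148) at chr14:99298691-99315036. They were picked by name from the 21647 genes of the count table, each matched to its row through its Ensembl identifier, and 9 of the 10 had enough reads to test. The series is poly(A) RNA sequencing of mouse cells, labelled as endothelium of the embryonic aorta, in 18 libraries. Cells were either homozygous for orpk, an insertion in Ift88 (also called Tg737), or wild type (WT). Ift88 encodes a carrier of cargo along the primary cilium, the hair-like organelle through which many cells sense flow. Each genotype was kept static or put under laminar shear of 2 or 30 dyn/cm2 for 48 h, so that the groups are orpk static, orpk at 2, orpk at 30, WT static, WT at 2 and WT at 30 dyn/cm2, with 3 libraries each. Cells were cultured in medium with 2% fetal bovine serum and brought to confluence on gelatin-coated slides, and serum was withdrawn for 24 h before flow. Static controls accompanied each set of flow experiments. For the static libraries neither serum withdrawal nor time in culture is recorded. A difference in either could not be told apart from shear in the comparisons with static. The comparisons ask how the Klf transcripts change with the strength of flow, and whether they do so differently in orpk cells.

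Members of the family bind GC-rich and CACCC-type DNA through a shared set of zinc fingers, while their remaining parts differ and make some of them activators and others repressors. In endothelium Klf2 and Klf4 are the members known for flow: steady laminar shear raises them through a kinase chain (MEKK2 and MEKK3, then MEK5, then ERK5) that acts on the MEF2 factors, and they in turn raise Nos3 and Thbd and hold down inflammatory genes. Klf6 and Klf10 are tied to injury and TGF-beta signalling, Klf9 and Klf15 to glucocorticoids, Klf3 to repression through the CtBP corepressors, and Klf5 to proliferating epithelium and smooth muscle.

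Library totals ran from 13626480 to 17387553 counts, so the libraries were close in depth. Levels are given in CPM, counts scaled to a common library size with TMM. Ift88 held 6.37 to 8.46 CPM in the 9 orpk libraries and 12.8 to 17.4 CPM in the 9 WT libraries, and an antisense gene overlaps its exons. No label ties a library to its own animal or isolation. The p-values therefore cover the spread among the 3 libraries of a group, possibly a technical one, and the genotype cannot be told apart from the culture that carries it. The labelled cell type was poorly matched by its defining markers: Cdh5, Tie1 and Erg had 0 reads in all 9 WT libraries, and Cldn5 and Robo4 had 0 reads in all 9 orpk libraries. Over 15 endothelial markers the summed level was 591 to 897 CPM in orpk libraries, most of it Cd34, and 27.5 to 54.8 CPM in WT libraries. Over 10 fibroblast markers it was 26541 to 41841 CPM in orpk libraries and 717 to 1160 CPM in WT libraries. The part of these marker differences in the results on genotype below was not tested, and in bulk RNA fewer cells of a type and less RNA per cell cannot be told apart. The zinc fingers of the family resemble one another, so a few short reads could be shared between members. The libraries orpk at 2 dyn/cm2 replicate 2 and WT at 2 dyn/cm2 replicate 1 stood apart from their own groups. Calls lost without them are named below.

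The upstream stretches of Klf2 and Klf4 are shown because these members are known for flow. Only the Klf2 stretch carries an exact match to the kind of site through which the flow pathway is known to act. Both are RefSeq sequence of build GRCm38.p6, printed on the strand of the gene and ending before the first start that RefSeq or GENCODE annotates. Klf2 is given as chr8:72318812-72319032 on the plus strand, 221 bases, and Klf4 as chr4:55532476-55532725 on the minus strand, 250 bases. Capitals mark the GC box GGGCGG on either strand, the E-box CACGTG and, in Klf2, the MEF2 site CTAAATTTAG.
Klf2: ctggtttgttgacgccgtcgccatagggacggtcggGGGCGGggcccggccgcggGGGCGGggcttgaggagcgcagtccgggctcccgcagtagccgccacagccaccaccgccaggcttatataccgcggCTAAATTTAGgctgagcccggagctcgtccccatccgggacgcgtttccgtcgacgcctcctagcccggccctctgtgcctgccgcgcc
Klf4: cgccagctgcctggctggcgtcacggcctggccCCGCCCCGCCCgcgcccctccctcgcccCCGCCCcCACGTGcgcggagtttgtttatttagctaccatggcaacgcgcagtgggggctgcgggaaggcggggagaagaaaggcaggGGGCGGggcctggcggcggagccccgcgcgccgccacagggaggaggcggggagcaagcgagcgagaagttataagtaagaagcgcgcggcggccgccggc
In the Klf2 stretch the MEF2 site began 89 bases before the start of the transcript and 2 GC boxes lay further upstream. In the Klf4 stretch there were 4 GC boxes, of which 1 pair overlaps, and 1 E-box, and no MEF2 site of the form searched. A MEF2 site was counted only as CTA, then 4 bases of A or T, then TAG. Looser forms were not searched. Over 32851 RefSeq promoters of 300 bases (250 before the start and 50 after it), 0.557% held a MEF2 site, 35.7% a GC box, 57.5% the letters CACCC on either strand, 7.15% the E-box and 1.63% the CArG box of SRF. Promoters of 8 of the 10 members were in the table. Of these Klf2 alone had the MEF2 site, and none had a CArG box. The GC box was present in 7 of the 8, Klf9 being without it, and Klf3 had the most of both GC boxes (6) and CACCC (5). A match in this window says nothing about whether a factor binds there.

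Measured per kilobase of exon, so that genes can be compared, Klf6 and Klf4 were the most abundant members in orpk cells, and in WT cells Klf6 led alone. In static orpk cells Klf6 (44.3 ± 1.12 CPM per kb, SD, n = 3) and Klf4 (43.7 ± 1.93 CPM per kb) overlapped at the top. In static WT cells Klf6 stood at 38.8 ± 2.04 CPM per kb with Klf3, Klf10 and Klf4 overlapping after it, at 15.6, 15.2 and 14.6 CPM per kb. At 30 dyn/cm2 the order differed by genotype. In orpk cells Klf4 came first at 84.1 ± 1.84 CPM per kb and Klf6 next at 64.8 ± 0.417, with no overlap. In WT cells Klf6 came first at 47.9 ± 0.953 CPM per kb, and Klf4 followed Klf10, Klf13 and Klf3 at 6.12 ± 0.135 CPM per kb. Klf5, Klf9 and Klf15 filled the lowest places in WT cells at every shear, and Klf5 and Klf15 did so in orpk cells. Summed over the 10 genes, the level was 166 ± 3.25, 134 ± 1.24 and 233 ± 1.61 CPM per kb in orpk cells (static, 2 and 30 dyn/cm2; SD, n = 3). In WT cells it was 107 ± 5.57, 84.5 ± 0.900 and 115 ± 0.939 CPM per kb. In each genotype the lowest sum was at 2 dyn/cm2 and the highest at 30 dyn/cm2.

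**Figure D1:**
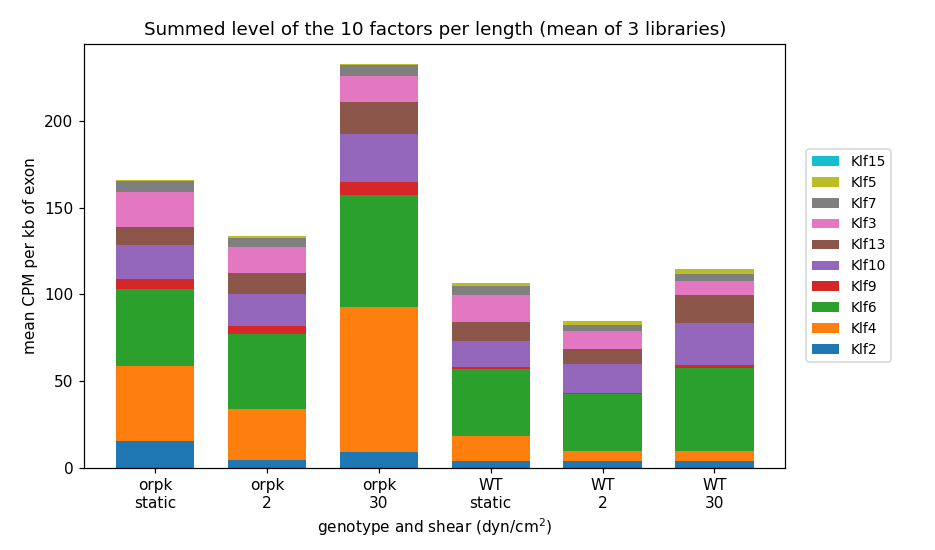
Stacked bars give the mean level of each of the 10 factors per kilobase of exon (CPM per kb, vertical axis) in the 6 groups of genotype and shear (horizontal axis). The orpk bars reach 166, 134 and 233 CPM per kb and the WT bars 107, 84.5 and 115, and the Klf4 band takes 84.1 of the 233 CPM per kb in orpk cells at 30 dyn/cm2, against 6.12 of 115 in WT cells.

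Klf2, the endothelial flow-response factor, was highest in static orpk cells, and no change with flow was called in WT cells, where it was low. Static orpk libraries held 31.0, 26.7 and 26.7 CPM, those at 2 dyn/cm2 6.15, 9.62 and 7.24 CPM and those at 30 dyn/cm2 15.3, 16.0 and 16.8 CPM. In WT cells the libraries held 6.98, 5.32 and 6.95 CPM when static, 8.48, 6.61 and 6.73 CPM at 2 dyn/cm2 and 7.73, 6.16 and 6.23 CPM at 30 dyn/cm2. The 3 orpk groups did not overlap with one another, while the 3 WT groups overlapped throughout and overlapped with orpk at 2 dyn/cm2. In orpk cells Klf2 fell by 1.86 on the log2 scale at 2 dyn/cm2 against static (SE 0.11, 3.64-fold, edgeR adjusted p = 2.18e-16), which is a larger change than that of all but 2.10% of tested genes. Under 30 dyn/cm2 it was 1.75-fold below static (log2 -0.81 ± 0.10) but 2.08-fold above 2 dyn/cm2 (log2 1.05 ± 0.12), so the level did not follow the order of shear. In WT cells the log2 changes against static were not called, at 0.17 ± 0.14 for 2 dyn/cm2 and 0.049 ± 0.15 for 30 dyn/cm2 (edgeR adjusted p = 0.301 and 0.799). The orpk level was 4.35-fold above WT in static cells and higher by 1.26 ± 0.12 on the log2 scale at 30 dyn/cm2. At 2 dyn/cm2 the difference was not called, at 0.082 ± 0.14 on the log2 scale (edgeR adjusted p = 0.574).

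Klf4, the partner of Klf2 in the endothelial response to flow, moved in opposite directions in the genotypes at 30 dyn/cm2. Static orpk libraries held 137, 136 and 126 CPM, against 89.4, 97.1 and 83.5 CPM at 2 and 258, 262 and 251 CPM at 30 dyn/cm2. WT libraries held 49.1, 38.4 and 46.1 CPM when static, 16.7, 15.5 and 16.8 CPM at 2 and 19.1, 18.6 and 18.3 CPM at 30 dyn/cm2. Every orpk library was above every WT library, and in orpk cells the 3 groups were separate, with 2 dyn/cm2 lowest and 30 dyn/cm2 highest. In WT cells both sheared groups lay below all static libraries. At 2 dyn/cm2 Klf4 fell in both genotypes, by 0.57 on the log2 scale in orpk (SE 0.053) and by 1.45 in WT cells (SE 0.076). Under 30 dyn/cm2 it was 1.93-fold higher than static in orpk cells (log2 0.94 ± 0.050, edgeR adjusted p = 3.62e-18) and 2.39-fold lower than static in WT cells (log2 -1.26 ± 0.074, edgeR adjusted p = 1.38e-16). The orpk level exceeded the WT level by 2.98-fold in static cells, 5.50-fold at 2 and 13.7-fold at 30 dyn/cm2. Beside these levels, the summed level of the 15 endothelial markers, in orpk cells mostly Cd34, does not stand for each marker. At 30 dyn/cm2 Pecam1 was lower in orpk than in WT cells (log2 -1.21, a call lost with DESeq2). The median over 11 of the markers there was 3.67, genes with 0 reads being taken at the floor of 3 reads. The sum was 788 to 809.6, 591 to 653 and 885 to 897 CPM in orpk cells (static, 2 and 30 dyn/cm2). It was 53.6 to 54.8, 28.0 to 29.1 and 27.5 to 30.4 CPM in WT cells. The part of these markers in the Klf4 and Klf2 results was not tested. Between 30 and 2 dyn/cm2 in WT cells the Klf4 difference of 0.19 ± 0.086 missed the threshold (edgeR adjusted p = 0.0911). It passed when the filter on low counts was dropped or only the compared groups were fitted (adjusted p = 0.0396 and 0.0378).

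**Figure D2:**
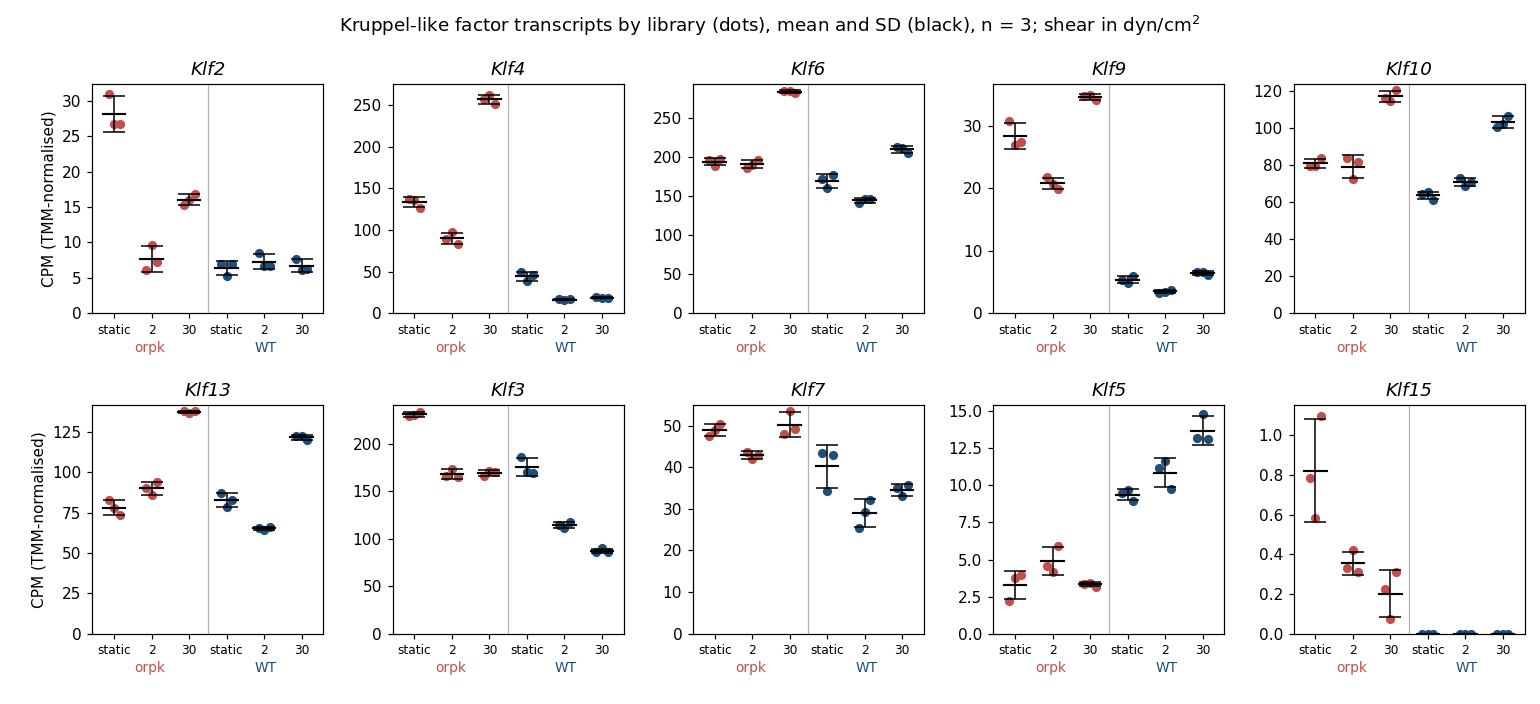
Each panel plots 1 factor, with dots for the 3 libraries of a group, black bars for the mean and SD, and CPM on a vertical axis that starts at 0. Orpk groups stand to the left and WT groups to the right, each in the order static, 2 and 30 dyn/cm2; Klf4 at 30 dyn/cm2 sits at 251 to 262 CPM in orpk and 18.3 to 19.1 CPM in WT libraries, and Klf15 is at 0 in every WT library.

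Klf6, Klf10 and Klf13 rose at 30 dyn/cm2 in both genotypes. Klf6 is induced by tissue injury and activates TGF-beta pathway genes such as Eng, Klf10 is itself an early TGF-beta target, and Klf13 is known as a regulator of Ccl5 in T cells. For Klf6, static orpk libraries held 197, 189 and 198 CPM, those at 2 dyn/cm2 186, 191 and 196 and those at 30 dyn/cm2 285, 286 and 282, and the same WT groups held 172, 160.3 and 178, then 142, 147 and 146, then 213, 212 and 206 CPM. At 30 dyn/cm2 every library was thus above every static library of its genotype, and at 2 dyn/cm2 only the WT libraries lay wholly below static. The rise against static was 0.55 ± 0.037 in orpk and 0.30 ± 0.037 in WT cells on the log2 scale (edgeR adjusted p = 7.13e-17 and 1.76e-09). Klf10 held 79.7, 79.3 and 83.7 CPM in static orpk, 83.8, 72.4 and 81.4 at 2 and 116, 114 and 121 at 30 dyn/cm2, and 64.3, 65.3 and 61.3 CPM in static WT, 73.1, 68.9 and 71.1 at 2 and 101, 102 and 107 at 30 dyn/cm2. Its log2 rise at 30 dyn/cm2 was 0.53 ± 0.047 in orpk and 0.70 ± 0.047 in WT cells. It alone of the 3 had the larger rise in WT cells by the test of the difference (-0.16 ± 0.066). That call was lost when orpk static replicate 3, orpk 30 dyn/cm2 replicate 1 or 2, WT static replicate 3 or WT 30 dyn/cm2 replicate 3 was left out. At 30 dyn/cm2 its libraries were above all static and 2 dyn/cm2 libraries of the genotype. Klf13 held 83.2, 77.6 and 73.9 CPM in static orpk, 90.2, 86.0 and 94.1 at 2 and 138, 137 and 138 at 30 dyn/cm2, and 87.3, 78.3 and 83.1 CPM in static WT, 65.7, 64.2 and 66.0 at 2 and 123, 123 and 120.0 at 30 dyn/cm2. Its 30 dyn/cm2 libraries were likewise the highest of each genotype. The summed level of the smooth muscle and pericyte markers was also highest there. It was 1897 to 2034, 2191 to 2437 and 4385 to 4483 CPM in orpk (static, 2 and 30 dyn/cm2) and 56.1 to 58.7, 69.3 to 77.0 and 124 to 138 CPM in WT libraries. The sum does not stand for each marker. At 30 dyn/cm2 against static the median log2 change over 7 of the markers was 0.91 in orpk and 0.048 in WT cells. At 30 against 2 dyn/cm2 the orpk change was below the WT change for Des, Pdgfrb and Notch3 (-1.13, -1.57 and -1.51). It was above it for Tagln and Cnn1 (0.46 and 1.93), and Acta2 and Cspg4 were not called. The part of these markers in the rises was not tested. At 2 dyn/cm2 Klf13 moved in opposite directions, 0.20 ± 0.046 in orpk and -0.34 ± 0.046 in WT cells (edgeR adjusted p = 0.000171 and 2.07e-08).

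Klf9, which glucocorticoids and thyroid hormone induce, differed by genotype more than by flow. It held 30.7, 26.9 and 27.4 CPM in static orpk libraries, 21.8, 20.7 and 19.9 at 2 and 34.8, 34.9 and 34.1 at 30 dyn/cm2. The WT libraries held 5.35, 4.83 and 6.03 CPM when static, 3.31, 3.48 and 3.69 at 2 and 6.59, 6.60 and 6.06 at 30 dyn/cm2. All orpk libraries were above all WT libraries, by 5.20-fold in static cells, 5.93-fold at 2 and 5.39-fold at 30 dyn/cm2. The pattern under flow had the same shape in both, lowest at 2 dyn/cm2: it fell by 0.45 in orpk and by 0.64 in WT cells on the log2 scale. At 30 against 2 dyn/cm2 it rose by 0.74 ± 0.067 in orpk and 0.87 ± 0.12 in WT cells. Against static, 30 dyn/cm2 gave 0.29 ± 0.065 in orpk (edgeR adjusted p = 0.000128) and, not called, 0.24 ± 0.12 in WT cells (edgeR adjusted p = 0.0686).

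Klf3, the CtBP-binding repressor, fell under flow in both genotypes. It held 229, 230.1 and 234 CPM in static orpk, 166, 174 and 165 at 2 and 166, 172 and 171 at 30 dyn/cm2, and 186, 171 and 169 CPM in static WT, 114, 111 and 117 at 2 and 86.1, 90.1 and 85.8 at 30 dyn/cm2. In orpk cells the sheared groups overlapped and lay below static, by 0.46 and 0.45 on the log2 scale, whereas in WT cells the 3 groups were separate and stepped down with shear, by 0.62 and then 1.01 against static. The exons of Klf3 overlap a gene on the opposite strand, and so do those of Klf7, and without strand in the counting the reads of either could be mixed with those of that gene. Klf7, a factor of neuronal development, held 47.5, 49.0 and 50.4 CPM in static orpk, 43.7, 41.9 and 42.9 at 2 and 47.9, 53.6 and 49.1 at 30 dyn/cm2, and 43.5, 34.3 and 42.8 CPM in static WT, 25.4, 29.3 and 32.1 at 2 and 35.1, 33.0 and 35.7 at 30 dyn/cm2. The lowest group of each genotype was that at 2 dyn/cm2, below all static libraries. It fell there by 0.19 in orpk and 0.48 in WT cells on the log2 scale (edgeR adjusted p = 0.0183 and 1.38e-06). The orpk call was lost without orpk static replicate 3 or without replicate 2 of the sheared group, which stood apart (in that case log2 -0.18, edgeR adjusted p = 0.0669), and with library totals as the scaling.

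Klf5, a factor of proliferating epithelium and smooth muscle, was the only tested member called lower in orpk than in WT cells, in static cells and at 2 and 30 dyn/cm2, while with library totals as the scaling Klf13 in static cells and Klf10 and Klf13 at 30 dyn/cm2 were called lower as well. It held 2.21, 3.75 and 3.95 CPM in static orpk libraries, 4.56, 4.15 and 5.94 at 2 and 3.37, 3.43 and 3.18 at 30 dyn/cm2, against 9.47, 9.73 and 8.97 CPM in static WT libraries, 11.2, 11.7 and 9.77 at 2 and 13.2, 14.8 and 13.1 at 30 dyn/cm2. Every orpk library lay below every WT library, by 2.82-fold in static cells and 4.11-fold at 30 dyn/cm2. The 10 epithelial and mesothelial markers summed to 158 to 302 CPM in orpk and 357 to 576 CPM in WT libraries. Medians of their log2 difference were -4.30, -3.13 and -4.65 (static, 2 and 30 dyn/cm2) over 9, 8 and 8 genes. A gene with 0 reads in a group was taken at the floor of 3 reads. The sum and the median differ in size, so neither stands for each marker. The sum of the 9 smooth muscle and pericyte markers went the other way, at 1897 to 4483 CPM in orpk and 56.1 to 138 CPM in WT libraries. The part of either in the Klf5 difference was not tested. Within WT cells Klf5 rose by 0.55 ± 0.10 at 30 dyn/cm2 (edgeR adjusted p = 1.39e-05). In orpk cells the change at 30 dyn/cm2 was not called, at 0.0074 ± 0.19 (edgeR adjusted p = 0.979), and the rise of 0.56 ± 0.17 at 2 dyn/cm2 was lost without orpk static replicate 1 or orpk 2 dyn/cm2 replicate 3 (log2 0.35 and 0.40). Klf15, a glucocorticoid-responsive regulator of metabolism, had 0 reads in all 9 WT libraries and few in orpk libraries, where it held 0.784, 0.581 and 1.10 CPM when static, 0.331, 0.421 and 0.309 at 2 and 0.225, 0.0714 and 0.310 at 30 dyn/cm2. Over the 3 libraries of a group these were 35, 17 and 8 reads, too few to pass the filter. The level at 2 dyn/cm2 was 0.438 of static (95% exact counting interval 0.230 to 0.802) and at 30 dyn/cm2 0.245 of static (0.0982 to 0.538). Against a floor of 3 reads over the WT group, the orpk level was at least 12.7-fold higher in static cells, at least 6.33-fold at 2 and at least 3.50-fold at 30 dyn/cm2. Intervals and floors cover counting error only.

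Counted over the 9 tested members, 7 passed at 2 dyn/cm2 against static in orpk cells, 2 higher and 5 lower (beside 62.0% of all tested genes, 30.9% higher and 31.1% lower). In WT cells 7 passed, 1 higher and 6 lower (beside 62.9% of all tested genes, 32.6% higher and 30.3% lower). Under library totals the members split into 2 higher and 4 lower in orpk and 2 higher and 6 lower in WT cells. All genes split into 5372 higher and 2982 lower in orpk and 5630 higher and 2916 lower in WT cells, in place of 4030 higher and 4060 lower and 4254 higher and 3960 lower. These counts are given beside a background in which most genes passed. Against static, 30 dyn/cm2 gave 7 calls in orpk, 5 higher and 2 lower (beside 69.9% of all tested genes, 36.5% higher and 33.3% lower). It gave 7 in WT cells, 4 higher and 3 lower (beside 66.9% of all tested genes, 34.1% higher and 32.7% lower; 5 higher and 2 lower of the members with library totals). At 30 against 2 dyn/cm2, 8 passed in orpk, 7 higher and 1 lower (beside 63.6% of all tested genes, 32.1% higher and 31.5% lower). In WT cells 7 passed, 6 higher and 1 lower (beside 33.1% of all tested genes, 15.9% higher and 17.2% lower). With library totals, 6 higher and 2 lower of the members and 2916 higher and 5551 lower of all genes passed in orpk, in place of 4190 higher and 4116 lower of all. That scaling moved the median log2 change of all genes to 0.12 in WT cells at 2 dyn/cm2 and to -0.12 in orpk at 30 against 2 dyn/cm2. The median of the members at 30 against 2 dyn/cm2 was 0.57 in orpk and 0.34 in WT cells, beside -0.0086 and 0 over all tested genes. Comparisons with static share the static libraries, and the third contrast shares its libraries with both.

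**Figure D3:**
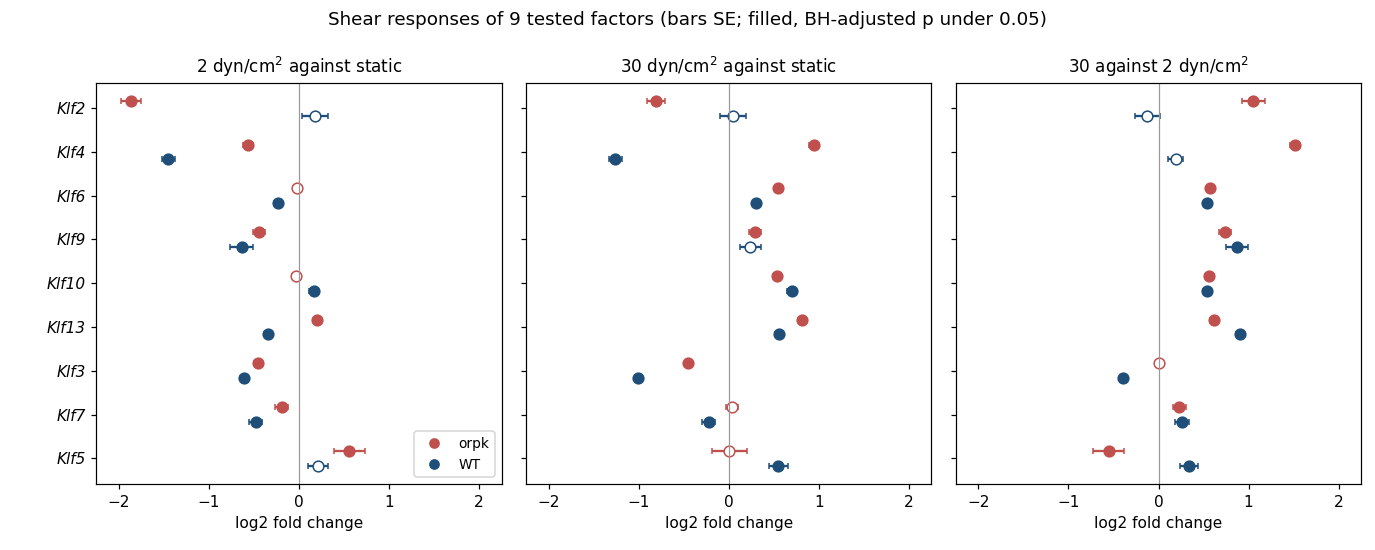
Points give log2 fold changes with their SE for 9 tested factors, orpk above WT in each row, in 3 panels (2 dyn/cm2 against static, 30 dyn/cm2 against static, 30 against 2 dyn/cm2); filled points passed at an adjusted p under 0.05. Klf2 and Klf4 have the widest gaps between the genotypes, as with Klf4 at 30 dyn/cm2 (0.94 in orpk, -1.26 in WT), while Klf9 and Klf10 lie close together.

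Between the genotypes, 8 of 9 tested members passed in static cells, 7 higher and 1 lower in orpk (beside 87.8% of all tested genes, 44.4% higher and 43.4% lower). At 2 dyn/cm2 8 passed, 7 higher and 1 lower (beside 87.5% of all tested genes, 44.6% higher and 42.9% lower), and under 30 dyn/cm2 9 passed, 8 higher and 1 lower (beside 86.9% of all tested genes, 44.9% higher and 42.0% lower). The members passed at about the rate of all genes. With library totals the members split into 5 higher and 2 lower in static cells, 6 higher and 1 lower at 2 and 6 higher and 3 lower at 30 dyn/cm2. All genes split into 4677 higher and 6834 lower at 2 and 4470 higher and 7143 lower at 30 dyn/cm2, in place of 5826 higher and 5606 lower and 5860 higher and 5490 lower. That scaling moved the median difference of all genes to -0.21, -0.20 and -0.28. Under it the difference turned negative for Klf6 in static cells (0.19 with TMM, -0.023 with totals), for Klf10 at 2 dyn/cm2 (0.15, -0.067) and at 30 dyn/cm2 (0.18, -0.13) and for Klf13 at 30 dyn/cm2 (0.18, -0.14). Klf4, Klf9 and Klf5 lay well beyond such a shift, and Klf2 did in static cells and at 30 dyn/cm2, whereas its uncalled difference of 0.082 ± 0.14 at 2 dyn/cm2 was -0.14 with library totals. Klf4 was at 1.58 to 3.78, Klf9 at 2.38 to 2.57, Klf5 at -1.15 to -2.04 and Klf2 at 2.12 in static cells and 1.26 at 30 dyn/cm2.

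**Figure D4:**
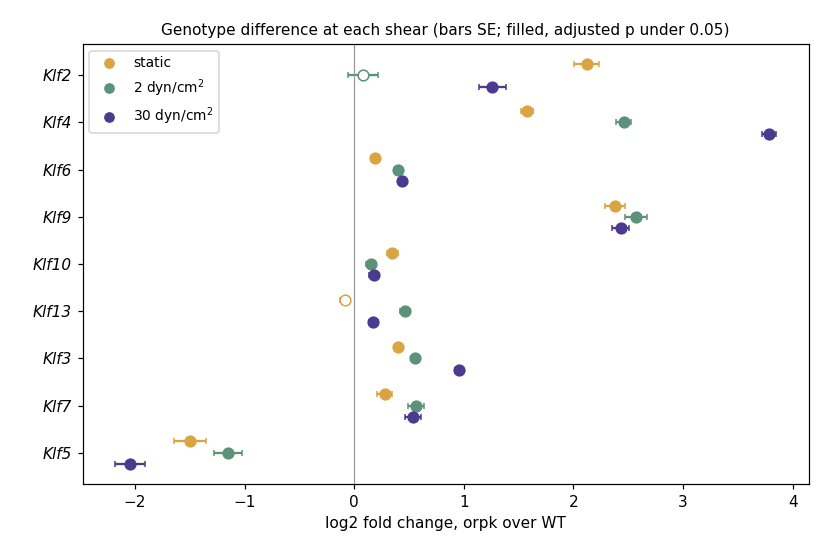
Points give the log2 fold change of orpk over WT with its SE for 9 tested factors, in static cells and at 2 and 30 dyn/cm2; filled points passed at an adjusted p under 0.05. Klf5 lies left of 0 and Klf4 and Klf9 far to the right, as does Klf2 except at 2 dyn/cm2 (0.082), while the differences of Klf6, Klf10 and Klf13 are under 0.5 and turn negative in part with library totals as the scaling. The uncalled Klf13 point in static cells lies left of 0 already as plotted (-0.084).

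The response to flow itself was compared between the genotypes as an interaction (the orpk change minus the WT change). Of 9 members, 7 passed at 2 dyn/cm2 against static, 5 higher and 2 lower in orpk (beside 52.6% of all tested genes, 27.1% higher and 25.4% lower). For 30 dyn/cm2 against static 8 passed, 5 higher and 3 lower (beside 57.5% of all tested genes, 30.6% higher and 26.9% lower). Without WT static replicate 3 that count was 5. For 30 against 2 dyn/cm2 5 passed, 3 higher and 2 lower (beside 46.5% of all tested genes, 25.0% higher and 21.5% lower). Over so few members these counts are not read as particular to the family. With library totals all genes split into 3275 higher and 4382 lower at 30 dyn/cm2 against static and 2386 higher and 3756 lower at 30 against 2 dyn/cm2, in place of 3992 higher and 3512 lower and 3261 higher and 2812 lower. The largest differences were those of Klf4 and Klf2. For Klf4 the orpk change at 30 dyn/cm2 exceeded the WT change by 2.20 ± 0.089 on the log2 scale (edgeR adjusted p = 8.45e-21). For Klf2 it was -2.04 ± 0.18 at 2 dyn/cm2 (edgeR adjusted p = 2.10e-11), and at 30 dyn/cm2 -0.86 ± 0.18. Klf9 was the 1 tested member with no call at any contrast, with differences of 0.19 ± 0.15, 0.052 ± 0.13 and -0.14 ± 0.14. For Klf7 and Klf10 the differences were small (0.29 ± 0.10 and -0.19 ± 0.068 at 2 dyn/cm2). Those calls were lost without a library that stood apart, Klf7 without WT at 2 dyn/cm2 replicate 1 (0.20, adjusted p = 0.0643) and Klf10 without orpk at 2 dyn/cm2 replicate 2 (-0.13, adjusted p = 0.0945).

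Of the other Klf genes in the table, Klf11, a TGF-beta-induced relative of Klf10, had the largest rise under flow among the tested Klf genes in orpk cells. It averaged 9.37, 41.7 and 45.1 CPM in orpk (static, 2 and 30 dyn/cm2) and 17.4, 27.0 and 31.2 CPM in WT cells. It rose by 2.15 ± 0.077 and 2.26 ± 0.077 in orpk and by 0.63 ± 0.070 and 0.84 ± 0.069 in WT cells on the log2 scale, and the difference passed, 1.52 ± 0.11 at 2 and 1.42 ± 0.11 at 30 dyn/cm2 (edgeR adjusted p = 1.98e-15 and 7.80e-15). Klf16 rose in orpk cells by 0.44 ± 0.065 at 2 and 0.83 ± 0.064 at 30 dyn/cm2, with WT changes of 0.10 ± 0.056 and 0.050 ± 0.056 that were not called. Klf8 and Klf12 were at 2.41 to 4.12 CPM on average in orpk groups and at 0 or 1 read per WT group. The remaining Klf1, Klf14 and Klf17 were under the filter and Klf18 is not analysed here. The Sp factors share the GC-box DNA of the family, and 6 of them were tested. Sp1 averaged, in static orpk cells, 233 CPM, against 285 CPM in WT cells. Sp4 rose by 0.53 ± 0.11 at 2 dyn/cm2 in orpk and fell by 0.42 in WT cells. Sp8 fell in WT cells by 0.80 and 0.90 at 2 and 30 dyn/cm2.

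The kinase chain and MEF2 factors through which flow is known to act on Klf2 and Klf4 were counted with Hdac4, Hdac5 and Hdac7. These are class IIa deacetylases, which hold MEF2 targets down, so the counts mix activators with repressors. In WT cells most genes of this mixed list fell under shear. Of 10 tested genes of 11 in this list, 1 higher and 0 lower passed at 2 dyn/cm2 and 4 higher and 2 lower at 30 dyn/cm2 in orpk cells, where 62.0% and 69.9% of all tested genes passed. In WT cells 0 higher and 8 lower passed at 2 and 0 higher and 8 lower at 30 dyn/cm2, where 62.9% and 66.9% of all passed. Scaled by library totals, the counts were 4 higher and 0 lower, then 4 higher and 2 lower in orpk, against 0 higher and 6 lower, then 0 higher and 6 lower in WT cells. The median log2 change at 30 dyn/cm2 was 0.078 in orpk and -0.26 in WT cells (-0.31 over the 9 genes above the floor of 3 reads), beside 0.015 and 0.0040 over all tested genes. The orpk change at 30 dyn/cm2 was the higher by the test of the difference for 9 of the 10 (beside 57.5% of all tested genes, 30.6% higher and 26.9% lower). Map2k5, which encodes MEK5, had an uncalled change of 0.055 ± 0.062 in orpk and fell by 0.52 in WT cells at 30 dyn/cm2. Mapk7, which encodes ERK5, was, uncalled, at -0.053 ± 0.046 in orpk and fell by 0.31 in WT cells. Map3k3, which encodes MEKK3, rose by 0.52 ± 0.042 at 30 dyn/cm2 in orpk and fell by 0.12 in WT cells, the WT call being lost with library totals. Mef2d rose by 0.41 ± 0.040 in orpk cells, and Mef2c had 170, 231 and 94 reads over the orpk groups (static, 2 and 30 dyn/cm2) and 0, 0 and 2 over the WT groups. The class IIa deacetylase Hdac5, which binds MEF2 and holds its targets down, fell by 0.36 in orpk and by 0.66 in WT cells at 30 dyn/cm2. Against static, the orpk change there exceeded the WT change by 0.93 ± 0.080 for Hdac4, 0.58 ± 0.051 for Hdac7 and 0.30 ± 0.064 for Hdac5. Heg1, which with Krit1 and Ccm2 restrains Klf2 and Klf4 through MEKK3 in endothelium, fell by 0.85 in orpk and by 0.29 in WT cells. Krit1 rose by 0.42 ± 0.054 in orpk, with an uncalled -0.026 ± 0.048 in WT cells.

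Genes that Klf2 and Klf4 are known to raise in endothelium went in both directions. Of 10 tested of 14, 3 higher and 5 lower passed at 30 dyn/cm2 in orpk and 2 higher and 4 lower in WT cells (beside 69.9% of all tested genes in orpk and 66.9% in WT cells). The list had median log2 changes of -0.71 and -0.65 (-0.85 in WT over the 8 genes above the floor), beside 0.015 and 0.0040 over all tested genes. Nos3, the endothelial nitric oxide synthase, held 0.258 to 0.512 CPM in static orpk and 2.28 to 2.66 CPM in static WT libraries, and fell by 0.96 at 2 dyn/cm2 in WT cells (edgeR adjusted p = 0.000355). Its change at 30 dyn/cm2 was -1.18 ± 0.66 in orpk and -0.46 ± 0.21 in WT cells, neither called (edgeR adjusted p = 0.108 and 0.0546). Thbd, which encodes thrombomodulin, had at most 17 reads in any group and was not tested. Aqp1, a water channel, rose by 0.47 ± 0.10 at 30 dyn/cm2 in orpk and fell by 1.53 in WT cells, with the difference at 2.01 ± 0.15 (edgeR adjusted p = 7.93e-08). Nqo1, an antioxidant enzyme, rose in both, by 1.82 ± 0.071 in orpk and 1.67 ± 0.30 in WT cells. Ptgds, the prostaglandin D synthase, and Sema3f fell, Ptgds by 2.36 in orpk and 1.47 in WT cells and Sema3f by 1.28 in orpk and 1.12 in WT cells. S1pr1 had 957, 548 and 268 reads in the orpk groups and 0 in all WT groups.

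Genes that Klf2 and Klf4 are known to hold down in endothelium went in several directions. Of 10 tested of 11, 3 higher and 6 lower passed at 30 dyn/cm2 in orpk and 2 higher and 7 lower in WT cells (beside 69.9% of all tested genes in orpk and 66.9% in WT cells). Median log2 changes were -0.83 in orpk and -0.61 in WT cells (-0.83 in WT over the 9 genes above the floor), beside 0.015 and 0.0040 over all tested genes. Vcam1, a leukocyte adhesion molecule, fell in both, by 1.15 in orpk and 2.88 in WT cells. Edn1, the endothelin gene, rose by 1.18 ± 0.13 in orpk and fell by 0.83 in WT cells, and Ccl2, a monocyte attractant, rose by 1.26 ± 0.043 in orpk and fell by 0.85 in WT cells. Edn1 and Ccl2 had orpk changes above the WT changes by 2.01 ± 0.19 and 2.10 ± 0.10 (edgeR adjusted p = 2.80e-12 and 4.16e-21). Among 12 tested targets of other members, Cdkn1a, the cell-cycle inhibitor that Klf4 and Klf6 are known to raise, fell by 1.75 at 2 dyn/cm2 in orpk and rose by 0.51 ± 0.043 in WT cells. Pdgfb rose by 3.22 ± 0.14 in orpk and 0.53 ± 0.045 in WT cells at 30 dyn/cm2. Bcat2, a Klf15 target of branched-chain amino acid breakdown, fell by 0.71 in orpk and was, uncalled, -0.044 ± 0.062 in WT cells. In that list 4 higher and 4 lower passed at 30 dyn/cm2 in orpk and 6 higher and 1 lower in WT cells (beside 69.9% of all tested genes in orpk and 66.9% in WT cells), with medians of 0.090 and 0.33.

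Genes of TGF-beta signalling, to which Klf6, Klf10 and Klf11 belong as targets or activators, were called in both directions in each genotype. Of 11 tested at 30 dyn/cm2, 7 higher and 3 lower passed in orpk and 4 higher and 4 lower in WT cells (beside 69.9% of all tested genes in orpk and 66.9% in WT cells), the same counts with library totals. Medians were 0.57 and 0.19, beside 0.015 and 0.0040 over all genes. Pmepa1, a feedback inhibitor of the pathway, rose by 3.27 ± 0.057 in orpk and 2.36 ± 0.058 in WT cells. Skil, a corepressor of the Smad proteins, rose by 1.60 ± 0.092 in orpk and 0.68 ± 0.093 in WT cells, and Smad7, an inhibitory Smad, by 1.11 ± 0.066 in orpk and 0.19 ± 0.065 in WT cells. For all 3 the orpk rise was larger by the test of the difference (0.92 ± 0.081, 0.92 ± 0.13 and 0.92 ± 0.094). Tgfb2 fell in orpk by 1.81. Over 6 tested glucocorticoid-responsive genes and receptor, which bear on Klf9 and Klf15, 3 higher and 2 lower passed at 30 dyn/cm2 in orpk and 1 higher and 4 lower in WT cells (beside 69.9% of all tested genes in orpk and 66.9% in WT cells), with medians of 0.53 and -0.26. The WT call of the receptor gene Nr3c1 (-0.12) was lost with library totals (-0.029). Fkbp5, a chaperone of the receptor, rose by 1.72 ± 0.045 in orpk and was, uncalled, -0.010 ± 0.040 in WT cells, and Tsc22d3 rose by 1.49 ± 0.056 in orpk and fell by 0.41 in WT cells. Sgk1 rose in both, by 1.04 ± 0.047 in orpk and 1.63 ± 0.062 in WT cells. Per1 fell in both, by 1.00 in orpk and 0.71 in WT cells.

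Of the ubiquitin ligases that mark Klf proteins for breakdown, Smurf1 rose by 0.77 ± 0.039 at 30 dyn/cm2 in orpk cells, and by 0.091 ± 0.041 in WT cells, a call that sits at the threshold and is lost with RLE factors. Fbxw7 rose by 1.22 ± 0.063 in orpk and 0.68 ± 0.056 in WT cells, and Vhl fell by 1.31 in orpk and 0.81 in WT cells. Ctbp2, a corepressor that Klf3 recruits, rose by 0.59 ± 0.057 in orpk and fell by 0.40 in WT cells at 30 dyn/cm2.

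**Figure D5:**
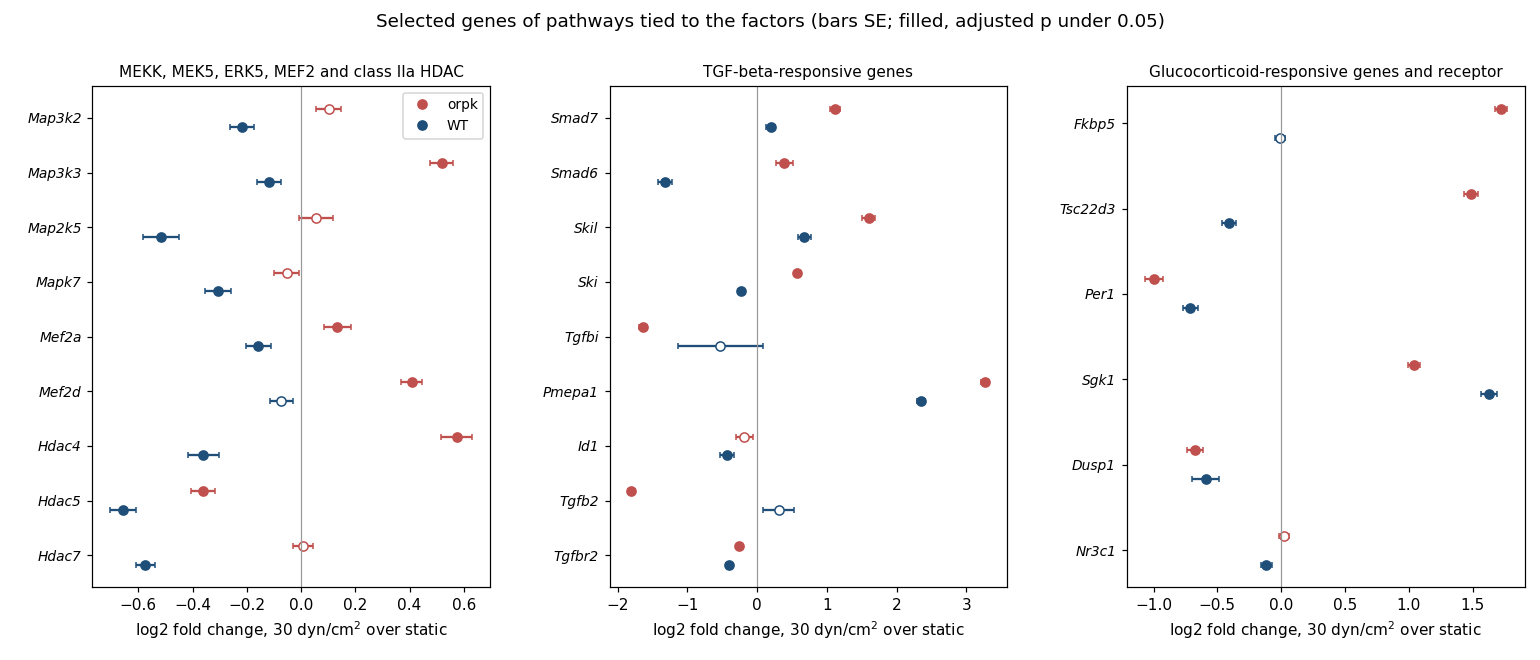
Log2 fold changes of 30 dyn/cm2 over static with SE, orpk above WT in each row, are shown for selected genes of the kinase chain, MEF2 and class IIa HDAC list, for TGF-beta-responsive and for glucocorticoid-responsive genes; filled points passed at an adjusted p under 0.05. In the kinase panel most WT points lie left of 0, and in the TGF-beta panel Pmepa1 lies furthest right in orpk cells, at 3.27.

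The genes whose pattern over the 18 libraries was most like that of each member were found by Pearson r of log2 CPM after subtracting the mean of each genotype, among 10473 genes. These r are descriptions, the 18 points sharing groups of 3 libraries. For Klf4 the closest were Tnfrsf22, Plekha1 and Klc1 (r = 0.991, 0.981 and 0.974), for Klf2 Grm7, Sfr1 and Cebpb (r = 0.953, 0.951 and 0.941), and for Klf6 Lrrfip1 and Itgb1 (r = 0.977 and 0.976). For Klf10 they were Nuak1, Sh3bp2 and Prkg2 (r = 0.986, 0.981 and 0.975) and for Klf13 Ano1, Skil and Tnnt2 (r = 0.967, 0.966 and 0.963). Klf3 was most like Arhgef10l (r = 0.987), Klf9 most like Fstl3 (r = 0.959), Klf7 most like Scaf11 (r = 0.910) and Klf5 most like Cdc42ep1 (r = 0.866). Among the members themselves the closest were Klf6 and Klf13 (r = 0.961), then Klf10 and Klf13 (r = 0.864), Klf6 and Klf9 (r = 0.862) and Klf6 and Klf10 (r = 0.855), while Klf3 ran against Klf10 (r = -0.727). Klf2 and Klf4, the members usually named together, had r = 0.265.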

How the data were processed

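Per the submitters' processing notes, the tools were CASAVA 1.8.2, STAR 2.4 and featureCounts 1.4.6, and the genome build was GRCm38. The deposited values are raw read counts per gene and library. The strand setting and the handling of reads that match several genes are not given in the sources used here, and zinc-finger genes of the family resemble one another in part. With edgeR 4.0.16 in R 4.3.3, filterByExpr kept 13058 of 21647 genes, scaling was TMM, and 1 mean was estimated for each of 6 groups across 18 libraries (quasi-likelihood fit, robust), with 12 residual degrees of freedom. The quasi-likelihood F test was adjusted by Benjamini-Hochberg at 0.05 in each of 12 comparisons: 6 of shear, 3 of genotype and 3 interactions. SD are over 3 libraries, SE is the log2 fold change over the root of F, and CPM per kb uses GENCODE exon length. Alternatives were RLE factors, library totals, no filter, DESeq2 1.42.0, the compared groups only, a replicate block, and each of 18 libraries left out. The method was tested on simulated data. The members, lists and tests were chosen with earlier results of these data known; the genes named were the 10 members, Ift88, the other Klf and Sp genes, Nos3, Thbd, Edn1, Vcam1, the leading genes of each list and the 3 genes most like each member, while other genes of the lists, and the selection printed, were chosen after their values were seen. A gene that the rule names is not reported here. Library totals were 13626480 to 17387553 counts.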

Additional observations from a re-analysis of the deposited data

Results flagged for a closer look

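These are the members whose response to flow differed between the genotypes by the test of the interaction in edgeR, as the orpk log2 change minus the WT log2 change (adjusted p under 0.05). At 2 dyn/cm2 against static the difference was -2.04 for Klf2, 0.16 for Klf3, 0.88 for Klf4, 0.21 for Klf6, 0.29 for Klf7, -0.19 for Klf10 and 0.55 for Klf13. At 30 dyn/cm2 against static it was -0.86 for Klf2, 0.56 for Klf3, 2.20 for Klf4, -0.54 for Klf5, 0.24 for Klf6, 0.26 for Klf7, -0.16 for Klf10 and 0.26 for Klf13. At 30 against 2 dyn/cm2 it was 1.18 for Klf2, 0.40 for Klf3, 1.32 for Klf4, -0.89 for Klf5 and -0.29 for Klf13. The sign of the Klf2 difference turned between the contrasts, the orpk change being below the WT change against static and above it against 2 dyn/cm2. These contrasts share libraries. The contrast of 30 against 2 dyn/cm2 is by definition the difference of those against static, so the turned sign is not a separate result. Calls lost when 1 library was left out are given with the processing. For Klf10 at 30 dyn/cm2 against static, whose call was also lost in this way, the libraries are named with its results above.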

How the results depend on the processing

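Of the members' single values under the alternatives, 5 changed sign with a call on either side, and these were with library totals as the scaling: Klf3 in orpk at 30 against 2 dyn/cm2 (-0.11), and between the genotypes Klf6 in static cells (-0.023), Klf10 at 2 and 30 dyn/cm2 (-0.067 and -0.13) and Klf13 at 30 dyn/cm2 (-0.14). The cause was not tested. Another 38 single values lost their call and 9 gained one. A further 28 changed sign without a call on either side, among them Klf2 between the genotypes at 2 dyn/cm2 (-0.14 with library totals), and 1395 kept their direction and their side of the threshold. The losses fell on Klf7, Klf5, Klf10 and Klf3. Klf7 lost the call between the genotypes in static cells (0.063) and at 30 against 2 dyn/cm2 in orpk (0.11) with library totals, its WT call at 30 dyn/cm2 against static with them (-0.13) or without WT static replicate 1 or 3, and its WT call at 30 against 2 dyn/cm2 without WT 2 dyn/cm2 replicate 1 (0.17). Its interaction was lost at 2 dyn/cm2 without WT static replicate 1 or 3 or WT 2 dyn/cm2 replicate 1, and at 30 dyn/cm2 with library totals (0.16), with DESeq2 (0.23) or without orpk static replicate 1, orpk 30 dyn/cm2 replicate 2, WT static replicate 1 or 3 or WT 30 dyn/cm2 replicate 2. Klf5 lost its interaction at 30 dyn/cm2 without orpk static replicate 2 or 3, orpk 30 dyn/cm2 replicate 3, WT static replicate 3 or WT 30 dyn/cm2 replicate 2, its orpk call at 30 against 2 dyn/cm2 without orpk 2 dyn/cm2 replicate 3, and its WT call there without WT 2 dyn/cm2 replicate 3 or WT 30 dyn/cm2 replicate 2. The Klf10 interaction at 2 dyn/cm2 was lost without orpk 2 dyn/cm2 replicate 2 or WT static replicate 3, and that of Klf3 without WT static replicate 1 (0.11). The count of members passing changed by more than 1.5 times once: for the interaction at 30 dyn/cm2 against static it was 8, and ran from 5 to 8 without a single library, the 5 being without WT static replicate 3, since Klf5, Klf7 and Klf10 then missed the threshold. Leaving out a library also let Klf15 through the filter, so genotype counts reached 10. No pairing of the samples by replicate number was detected. Over 45 same-numbered pairs from different groups, correlations of deviations ran from -0.095 to 0.14, 3 were over 0.1, and 6 of 18 libraries were closest to their own number. With 3 libraries per group this cannot exclude that same-numbered libraries shared an experiment. With the replicate block the members passing were 7, 7 and 8 in orpk (2 and 30 dyn/cm2 against static, 30 against 2 dyn/cm2), as without it, and no member's call changed.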
